A study of Mus musculus with 17 samples.

Results

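Tubulins are the proteins from which microtubules are built, and 10 tubulin genes were followed here: the alpha tubulin genes Tuba1a, Tuba1b and Tuba4a and the beta tubulin genes Tubb2a, Tubb2b, Tubb3, Tubb4a, Tubb4b, Tubb5 and Tubb6. They were taken by gene name from the 78298 genes of each table, and all 10 were found (3 alpha, 7 beta). The libraries came from brainstem tissue of male C57BL/6 mice, labelled as locus coeruleus, the main noradrenergic nucleus of the brain. The groups were mice given vindeburnol (5 libraries), mice given its derivative VB-127 (6 libraries) and untreated control mice (6 libraries). Both compounds were given in water by oral gavage, in a volume of 0.1 ml, at 20 mg/kg once daily for 5 days, and tissue was taken 24 h after treatment. Controls are labelled as having no treatment, with no mention of gavage, so that a compound and its gavage cannot be told apart. The labels give no age and do not say whether each library came from a separate mouse. The p-values therefore weigh group differences against the spread between libraries within groups. That spread may be partly technical and need not be the spread between mice.

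Vindeburnol is a synthetic relative of the eburnamine and vincamine alkaloids of the periwinkle family, and the stated aim of the series is to find the molecular target of such compounds. The classic anticancer vinca alkaloids, vinblastine and vincristine, bind beta tubulin where alpha and beta subunits meet and stop microtubules from growing. Cells also sense their own tubulin: when free alpha and beta tubulin accumulates, the protein TTC5 recognises the first residues of newly made tubulin on the ribosome and, with SCAPER and the CCR4-NOT complex, brings about decay of the tubulin mRNAs being translated. Some drugs that depolymerise microtubules are known to lower tubulin mRNA in cultured cells by this route. This sets no expected direction for vinca alkaloids or their relatives. Isotypes are used unevenly in the brain: Tubb3 and Tuba1a are typical of neurons, Tubb4a is prominent in myelinating oligodendrocytes, and Tubb5 and Tuba1b are found in most cells.

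The starts of the coding sequences are shown because they encode the residues at which autoregulation acts. In these first 24 coding bases the first 4 codons are in capitals, read from GENCODE M21 transcripts (GRCm38), whose build differs from the GRCm39 of the deposited values.
Tuba1a: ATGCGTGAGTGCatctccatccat
Tuba4a: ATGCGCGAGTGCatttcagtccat
Tubb3: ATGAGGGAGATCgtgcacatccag
Tubb4a: ATGCGGGAAATCgtgcacctgcaa
The alpha genes shown share the codon TGC at the fourth place and the beta genes shown the codon ATC. The ends of the coding sequences are shown because isotypes differ most there and because Tubb2a and Tubb2b are hard to tell apart in sequencing reads. These are the last 60 coding bases with the stop codon, 5′ to 3′ on the coding strand, with the in-frame glutamate codons GAA and GAG in capitals, from the same GENCODE M21 transcripts.
Tuba4a, chr1:75215622-75215681, minus strand: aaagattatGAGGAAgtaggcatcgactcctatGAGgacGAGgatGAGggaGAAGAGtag
Tubb2a, chr13:34074468-34074527, minus strand: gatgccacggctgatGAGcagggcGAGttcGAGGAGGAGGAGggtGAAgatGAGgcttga
Tubb2b, chr13:34127471-34127530, minus strand: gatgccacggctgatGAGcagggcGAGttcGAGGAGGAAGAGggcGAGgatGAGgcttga
Tubb3, chr8:123421623-123421682, plus strand: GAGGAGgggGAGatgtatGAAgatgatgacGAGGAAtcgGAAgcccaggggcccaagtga
Tubb4a, chr17:57080690-57080749, minus strand: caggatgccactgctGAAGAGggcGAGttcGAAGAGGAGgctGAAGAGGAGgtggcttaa
These stretches hold 7 such codons in Tuba4a and Tubb3, 8 in Tubb2a and Tubb2b and 9 in Tubb4a. The Tuba4a coding sequence ends in GAG before the stop codon.

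Over the whole coding sequence Tuba1a and Tuba1b were 98.3% identical and Tubb2a and Tubb2b 96.5%, while the other pairs within a class were 80.2% to 85.9% identical. Of the 31-base windows along a transcript, 23.0% in Tuba1a, 24.6% in Tuba1b, 43.6% in Tubb2a, 54.1% in Tubb2b and 35.4% in Tubb4b occurred in no other gene of the annotation. For the other 5 genes this share was 95.6% to 98.1%. Tuba1a and Tuba1b shared most windows with Tuba1c, and Tubb4b with its pseudogene Tubb4b-ps1. The split of reads between Tuba1a and Tuba1b, between Tubb2a and Tubb2b, and the level of Tubb4b are therefore uncertain in every value that follows.

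Tubulin mRNA was abundant and its order of levels was stable. Values are TPM, a relative transcript abundance that is adjusted for transcript length and adds up to the same total in every library. Read depth is unknown. Together the 10 genes made up 0.504% ± 0.041 of the TPM in vindeburnol libraries (SD, n = 5), 0.532% ± 0.025 in VB-127 libraries (SD, n = 6) and 0.490% ± 0.051 in control libraries (SD, n = 6). Their summed level lay between 4587 and 5683 TPM with vindeburnol, between 4915 and 5627 TPM with VB-127 and between 4016 and 5512 TPM in controls, and the ranges overlapped.

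Over the 17 libraries the highest mean levels were those of the widespread Tuba1b, at 1069 ± 59.7 TPM, and the neuronal Tuba1a, at 1013 ± 106.8 TPM (SD, n = 17). Tuba1b exceeded Tuba1a in 12 of 17 libraries, so these neighbours did not separate. Tubb4a followed at 792 ± 127.1 TPM and Tubb2a at 539 ± 39.4 TPM. Tuba4a and Tubb3 came next, at 441 ± 46.4 and 439 ± 46.9 TPM, and Tuba4a was the higher of the pair in 7 of 17 libraries. Tubb4b, Tubb5 and Tubb2b were at 388 ± 34.8, 311 ± 26.9 and 100.3 ± 14.1 TPM. Tubb6, an isotype that is scarce in brain, was at 1.10 ± 0.312 TPM. Every other neighbouring pair in this order kept it in 17 of 17 libraries. The coefficient of variation over all libraries was 5.58% for Tuba1b and 16.0% for Tubb4a, with the other 7 abundant genes between them, and 28.4% for Tubb6.

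**Figure D1:**
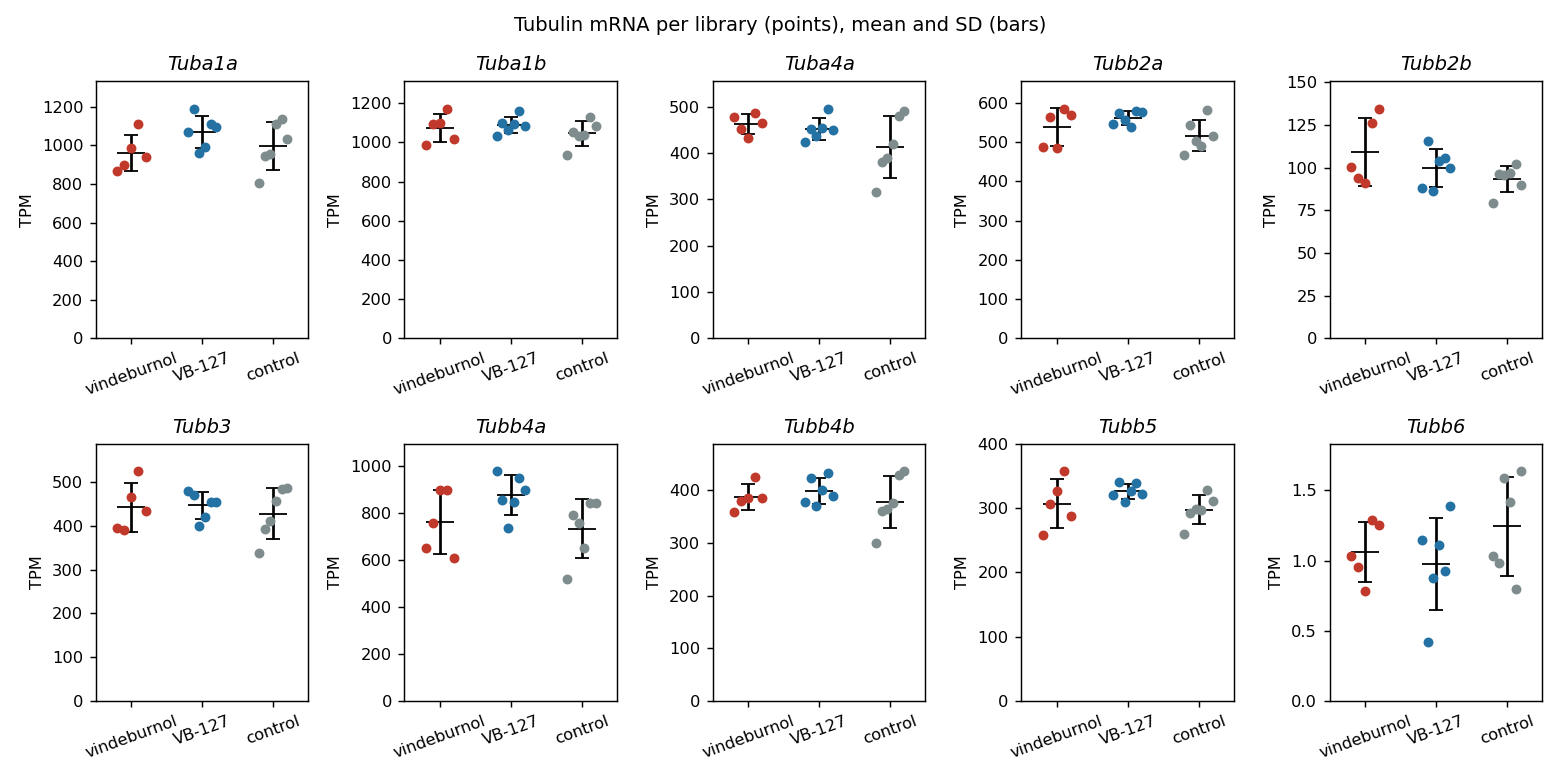
TPM (vertical axis, from 0) of each tubulin gene in each library (points), with the group mean and SD (bars), for vindeburnol (n = 5), VB-127 (n = 6) and control (n = 6). The 3 groups overlap in all 10 panels, and the lowest control point, replicate 1, is the lowest of all 17 libraries in 8 of the 9 abundant genes.

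The balance of isotypes was described as the share of each gene in the summed TPM of its class, a measure that does not depend on the scaling of a library. No test was run on these shares, and the groups overlapped for every gene. Among alpha genes Tuba1b took 43.0% ± 1.14 after vindeburnol, 41.7% ± 1.23 after VB-127 and 42.7% ± 2.01 in controls. Tuba1a took 38.4% ± 1.39 after vindeburnol, 40.97% ± 1.81 after VB-127 and 40.6% ± 1.53 in controls, where n is 5, 6 and 6 in these and the next shares. By library its share was 37.2%, 36.8%, 39.2%, 40.1% and 38.8% after vindeburnol, 39.0% to 43.5% (median 40.95%) after VB-127 and 39.1% to 43.3% (median 40.0%) in controls. The 3 lowest vindeburnol libraries lay below every VB-127 and control library, and the other 2 lay within their ranges.

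Tuba4a, whose product lacks the encoded terminal tyrosine, took 18.6% ± 1.34 of alpha tubulin TPM after vindeburnol, 17.3% ± 0.617 after VB-127 and 16.7% ± 1.24 in controls. Its share was 20.5%, 18.5%, 17.2%, 17.5% and 19.2% in the vindeburnol libraries, 16.4% to 17.9% (median 17.4%) after VB-127 and 15.3% to 18.8% (median 16.3%) in controls. The vindeburnol mean lay 1.87 percentage points above the control mean, against a pooled within-group SD of 1.29 points, and ranged from 1.39 to 2.29 points when each library was left out in turn. For Tuba1a the vindeburnol mean lay 2.17 points below the control mean, with a pooled within-group SD of 1.47 points.

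Beta tubulin mRNA was led by the oligodendrocyte isotype Tubb4a, with 29.8% ± 3.18 after vindeburnol, 32.3% ± 1.81 after VB-127 and 29.8% ± 2.28 in controls. Its share in the vindeburnol libraries was 28.9%, 30.3%, 33.8%, 30.7% and 25.1%, against 29.9% to 35.0% (median 32.5%) after VB-127 and 26.4% to 31.9% (median 30.7%) in controls. In VB-127, 4 of 6 libraries lay above the highest control. Tubb2a took 21.2% ± 2.11, 20.7% ± 1.02 and 21.2% ± 1.54 in vindeburnol, VB-127 and control libraries. The neuronal isotype Tubb3 took 17.3% ± 0.952 after vindeburnol, 16.5% ± 0.522 after VB-127 and 17.5% ± 1.14 in controls. Tubb4b, Tubb5 and Tubb2b took 15.3%, 12.0% and 4.31% after vindeburnol, 14.7%, 12.1% and 3.69% after VB-127, and 15.4%, 12.2% and 3.83% in controls. Tubb6 took 0.042%, 0.036% and 0.051% in the same groups. The ratio of summed alpha to summed beta TPM was 0.983 ± 0.036 after vindeburnol, 0.964 ± 0.033 after VB-127 and 1.01 ± 0.049 in controls, and these ranges overlapped too.

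**Figure D2:**
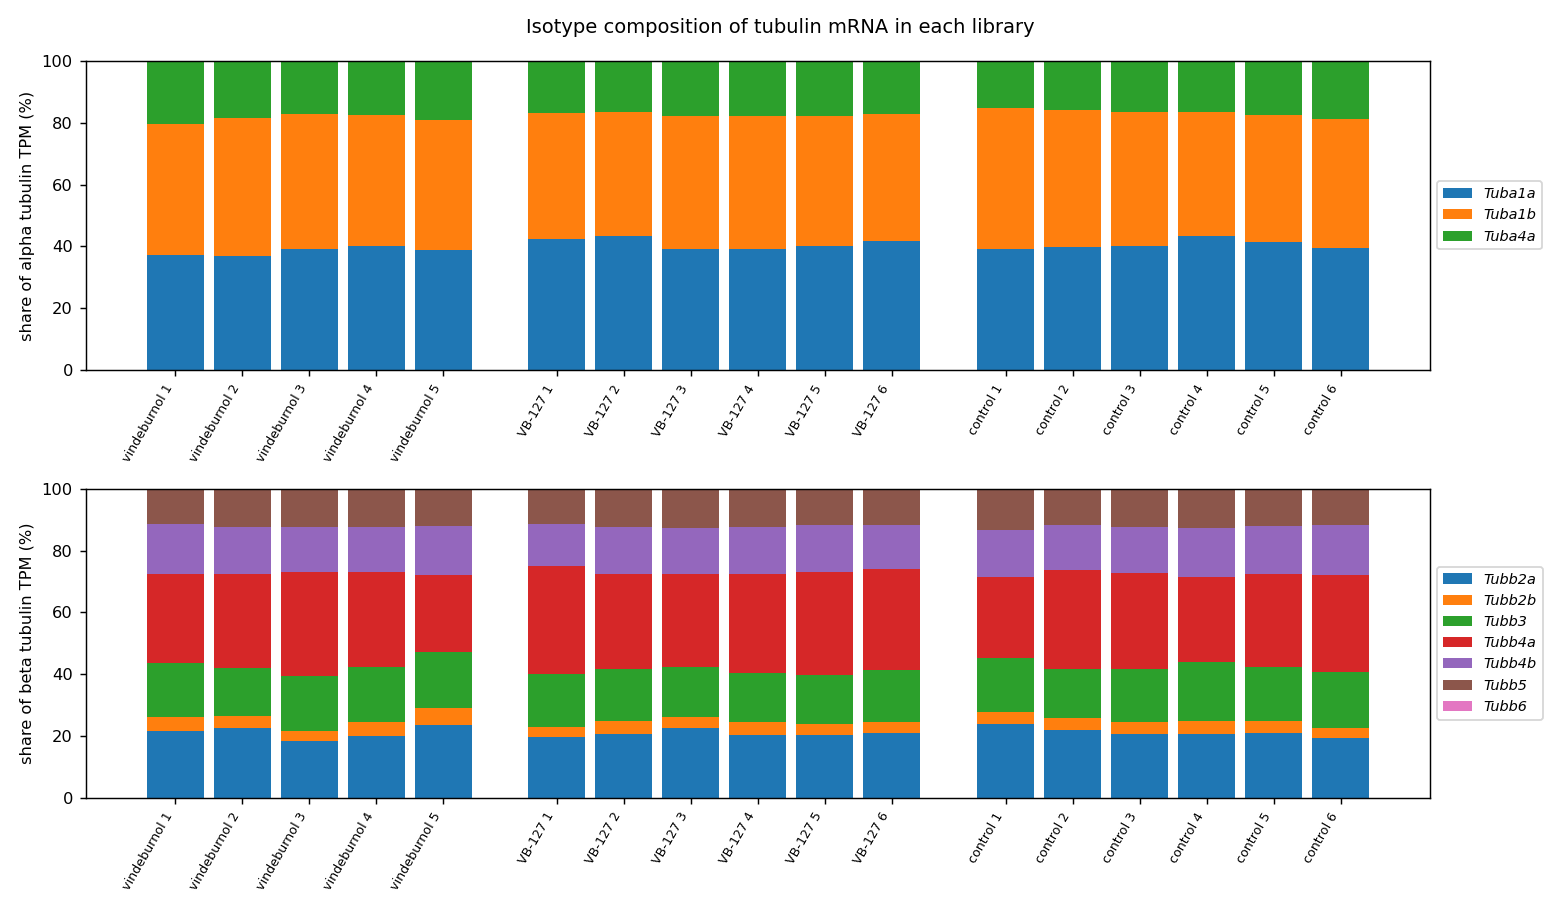
Share of each gene (percent, vertical axis) in the summed TPM of the 3 alpha genes (top) and the 7 beta genes (bottom), with 1 bar per library, grouped as vindeburnol, VB-127 and control. Tuba1a and Tuba1b fill parts of similar size in the alpha bars of every library, and Tubb4a is the largest part of every beta bar, from 25.1% to 35.0%.

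The first question was whether vindeburnol shifts tubulin mRNA relative to untreated mice. No tubulin gene passed the test. A linear model in limma on log2(TPM + 1), fitted to all 17 libraries and adjusted by the Benjamini-Hochberg method over 16153 tested genes, called 0 of the 10 tubulin genes at an adjusted p under 0.05. The background was also 0 of 16153 genes (0%). At an unadjusted p under 0.05, limma had 0 of 10 tubulin genes against 1319 of 16153 genes (8.17%), of which 1122 were higher (6.95%) and 197 lower (1.22%). Of 27 alternative settings, 7 gave 1 or 2 tubulin genes at that level, Tuba4a, Tubb2b or both, with positive differences. For 0 of 10 tubulin genes did the vindeburnol libraries all lie on one side of the controls, beside 0.458% of all genes with every library above and 0.0619% with every library below. Fold changes on this scale understate changes of genes with low values, which here touches Tubb6.

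The tubulin nearest the threshold was Tuba4a, at 478, 452, 432, 485 and 465 TPM in the vindeburnol libraries, against 315 to 490 TPM (median 404 TPM) in controls. All 5 vindeburnol libraries lay above the control mean of 412 TPM, while the 2 highest controls, at 480 and 490 TPM, lay within or above them. limma put the log2 difference at 0.18 (SE 0.087, 95% interval -0.0025 to 0.36) and gave an unadjusted p of 0.053 and an adjusted p of 0.609. Without control replicate 1, the lowest library for Tuba4a, the log2 difference was 0.10 (limma adjusted p 0.774).

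Tubb2b, an isotype of developing neurons, was at 100.2, 93.9, 91.0, 126 and 135 TPM in the vindeburnol libraries and at 79.4 to 102 TPM (median 95.8 TPM) in controls. Replicates 4 and 5 lay above every control, and the other 3 lay among them. limma put the log2 difference at 0.21 (SE 0.106, 95% interval -0.01 to 0.43) and the adjusted p at 0.617, and the difference was 0.13 without vindeburnol replicate 5 and 0.31 (95% interval 0.08 to 0.54, limma adjusted p 0.953) with library weights.

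For the other alpha genes the vindeburnol libraries lay among the controls or close to them. Tuba1a was at 867, 898, 987, 1109 and 939 TPM after vindeburnol, against 803 to 1137 TPM (median 995 TPM) in controls, and Tuba1b at 987, 1092, 1100, 1173 and 1016 TPM, against 937 to 1129 TPM (median 1047 TPM). Their log2 differences were -0.05 (95% interval -0.23 to 0.12) and 0.04 (95% interval -0.08 to 0.15), with limma adjusted p of 0.896 and 0.887.

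Among the beta genes, the oligodendrocyte isotype Tubb4a was at 652, 756, 897, 895 and 607 TPM after vindeburnol and at 517 to 841 TPM (median 772 TPM) in controls. Of the vindeburnol libraries, 2 lay above every control and 2 lay between the lowest and the second lowest control. Its log2 difference was 0.06 (SE 0.124, 95% interval -0.20 to 0.32). The neuronal Tubb3 was at 396, 390, 465, 525 and 434 TPM, against 338 to 487 TPM (median 434 TPM), a log2 difference of 0.05 (95% interval -0.14 to 0.24). The widespread Tubb5 was at 258, 306, 327, 357 and 287 TPM, against 260 to 329 TPM (median 298 TPM), a log2 difference of 0.04 (95% interval -0.12 to 0.19). Tubb2a and Tubb4b had log2 differences of 0.06 and 0.04, and the low Tubb6, at 0.780 to 1.29 TPM against 0.797 to 1.64 TPM, one of -0.11. For these 6 genes the limma adjusted p lay between 0.834 and 0.930.

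For vindeburnol 8 of 10 tubulin log2 differences were positive, but 2 of 10 with median-ratio scaling, with quantile normalization or with Bc1 left out, and 4 of 10 without control replicate 1. The tubulin median was 0.05, beside 0.08 for all tested genes, of which 69.7% were positive, and without control replicate 1 it was -0.01 beside 0.08. The neuronal RNA Bc1, which is short and non-coding, accounted for 21.4% ± 5.89 of the TPM in vindeburnol libraries, 21.04% ± 4.41 in VB-127 libraries and 24.5% ± 5.90 in controls. Its part in the small differences was not tested beyond that alternative. In bulk tissue such as this, fewer cells of a type and less RNA per cell cannot be told apart.

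VB-127 was set against the same untreated controls, so both comparisons share those 6 libraries. No tubulin gene passed the test here either: limma called 0 of 10, against 1 of 16153 genes (0.00619%), the predicted gene Gm28119. At an unadjusted p under 0.05 there was 1 tubulin gene of 10, Tubb4a, against 1648 of 16153 genes (10.2%), of which 1562 were higher (9.67%) and 86 lower (0.532%). Over the 27 alternatives this count of tubulin genes ran from 0 to 4. Groups did not separate for any of the 10 genes, beside 0.656% of all genes with every VB-127 library above the controls and 0.0124% with every one below.

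Tubb4a was at 977, 855, 734, 848, 947 and 899 TPM after VB-127 (lowest 734, median 877), and at 517, 790, 755, 653, 840 and 841 TPM in controls (median 772). All 6 VB-127 libraries lay above the control mean of 733 TPM, and 5 of them lay above the highest control. VB-127 replicate 3, at 734 TPM, lay among the controls. limma put the log2 difference at 0.27 (SE 0.118, 95% interval 0.03 to 0.52, or 1.02-fold to 1.43-fold). The unadjusted p was 0.031 and the limma adjusted p 0.470, which missed the threshold. It was 0.18 without control replicate 1, 0.15 with median-ratio scaling and 0.17 with summary levels of neuron and oligodendrocyte markers as covariates, with limma adjusted p of 0.661, 0.845 and 0.606. The 95% interval covered 0 in these 3 settings and in 9 of 27 alternatives in all, those with quantile normalization, with Bc1 left out and without control replicate 4 among them.

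Markers of oligodendrocytes, the cells in which Tubb4a is prominent, stood beside that value. The summed TPM of 10 oligodendrocyte genes was 7868 to 10223 after VB-127, against 6392 to 10541 in controls, and 7106 to 8623 after vindeburnol. Of these 10 genes, limma called 0 for VB-127 against controls, 4 (Mog, Mag, Cnp and Opalin) had an unadjusted p under 0.05 with positive differences, beside 9.67% of all genes in that direction, and the median log2 difference was 0.16 beside 0.11 for all genes. Differences were positive for 8 of these 10 genes, and the lowest was -0.15. The myelin gene Mag, which had the smallest p of the 10, was at 519 ± 51.8 TPM after VB-127. In controls it was at 422 ± 81.8 TPM, with a limma adjusted p of 0.467. Apart from the covariate fit above, the part of oligodendrocyte content in the Tubb4a value was not tested.

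The alpha genes after VB-127 were all within 0.15 of controls on the log2 scale. Tuba1a was at 962 to 1191 TPM (median 1083 TPM) after VB-127, against 803 to 1137 TPM (median 995 TPM) in controls, and Tuba1b at 1035 to 1160 TPM (median 1089 TPM), against 937 to 1129 TPM (median 1047 TPM). Tuba4a was at 424 to 496 TPM (median 450.3 TPM), against 315 to 490 TPM (median 404 TPM), with 6 of 6 libraries above the control mean. Their log2 differences were 0.11 (95% interval -0.06 to 0.27), 0.06 (95% interval -0.05 to 0.17) and 0.15 (95% interval -0.03 to 0.32), with limma adjusted p of 0.619, 0.675 and 0.547. Without control replicate 1 these differences were 0.05 for Tuba1a, 0.03 for Tuba1b and 0.07 for Tuba4a.

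Of the remaining beta genes, Tubb2a and Tubb5 had all 6 VB-127 libraries above the control mean without separating from the controls. Tubb2a was at 538 to 578 TPM (median 564 TPM) after VB-127, against 467 to 580 TPM (median 509 TPM) in controls, a log2 difference of 0.12 (95% interval -0.0055 to 0.25, limma adjusted p 0.502). Tubb5 was at 310 to 341 TPM (median 324 TPM), against 260 to 329 TPM (median 298 TPM), a log2 difference of 0.13 (95% interval -0.01 to 0.28, limma adjusted p 0.525). Tubb2b, Tubb3 and Tubb4b had log2 differences of 0.09, 0.07 and 0.09, and Tubb6, at 0.418 to 1.39 TPM against 0.797 to 1.64 TPM, one of -0.19 (95% interval -0.52 to 0.15).

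For VB-127 9 of 10 tubulin log2 differences were positive, but 3 of 10 with median-ratio scaling and 8 of 10 with quantile normalization or with Bc1 left out. The tubulin median was 0.10, beside 0.11 for all tested genes, of which 79.4% were positive, and median-ratio scaling moved the median of all genes to 0.01. The tubulin median for VB-127 was 0.05 beside 0.11 without control replicate 1, and 0.04 beside 0.11 with the marker covariates. The tubulin median minus the median of all genes was -0.03 for vindeburnol and -0.01 for VB-127. This distance took both signs over the alternatives, from -0.10 to 0.03 for vindeburnol and from -0.08 to 0.06 for VB-127.

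**Figure D3:**
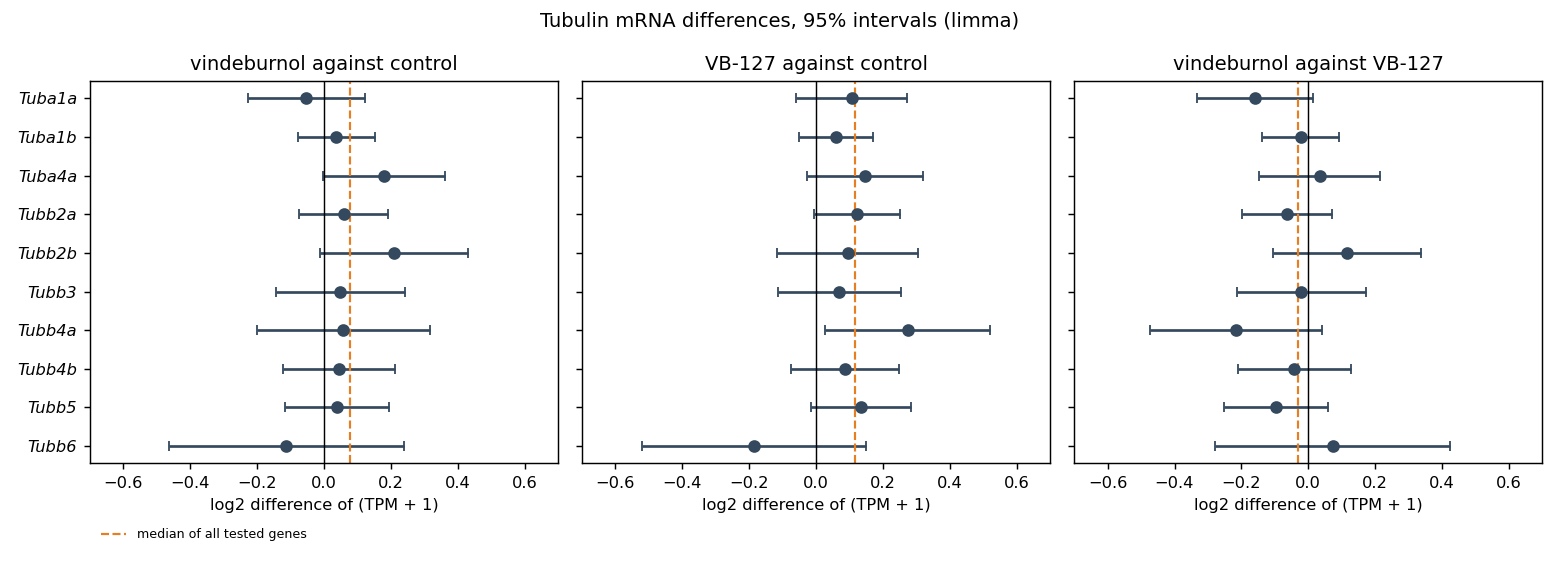
Log2 difference of (TPM + 1) for each tubulin gene (points) with its 95% interval from limma (bars), for vindeburnol against control, VB-127 against control and vindeburnol against VB-127; the solid line marks no difference and the dashed line the median of all 16153 tested genes. Of 30 intervals, that of Tubb4a for VB-127 against control is the 1 that leaves out 0 in the fit drawn, and it covers 0 in 9 of 27 alternatives.

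The intervals give, on the deposited TPM scale, the sizes of difference that these libraries leave possible. For the 9 abundant genes and both comparisons with controls, the 18 intervals of 95% lay between 0.854-fold and 1.43-fold, and 17 of them covered no change. Over the 27 alternatives their outer limits were 0.749-fold, for Tuba1a after vindeburnol with median-ratio scaling, and 1.49-fold, for Tubb4a after VB-127 without VB-127 replicate 3. Each interval stands on its own, and the count was not adjusted for the number of genes.

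The compounds, given at the same dose and for the same time, were then compared with each other. No tubulin gene passed the test between vindeburnol and VB-127: limma called 0 of 10, beside 0 of 16153 genes (0%), and 0 of 10 had an unadjusted p under 0.05, beside 546 genes (3.38%; 0.891% higher and 2.49% lower). Of 27 alternatives 6 gave 1 to 3 tubulin genes at that level. Without vindeburnol replicate 4 these were Tuba1a at -0.21, Tubb4a at -0.28 and Tubb5 at -0.15, and without control replicate 1 they were Tuba1a at -0.16 and Tubb4a at -0.22, with limma adjusted p rounding to 1.00. All 10 groups of values overlapped, beside 0.105% and 0.285% of all genes whose vindeburnol libraries lay wholly above or below those of VB-127. Tubb4a had the largest difference in size, at 607 to 897 TPM (median 756 TPM) after vindeburnol against 734 to 977 TPM (median 877 TPM) after VB-127, a log2 difference of -0.22 (SE 0.124, 95% interval -0.47 to 0.04). Tuba1a followed with -0.16 (95% interval -0.33 to 0.01), at 867 to 1109 TPM after vindeburnol against 962 to 1191 TPM after VB-127. Both sets overlapped between the groups. Tubb2b was at 0.11 (95% interval -0.11 to 0.34), at 0.035 without vindeburnol replicate 5 and at 0.24 with library weights. All 10 limma adjusted p values rounded to 1.00, and the intervals of the 9 abundant genes lay between 0.720-fold and 1.26-fold, with outer limits of 0.684-fold and 1.36-fold over the alternatives. The median of the 10 log2 differences was -0.03, as it was for all genes. Positive differences were found for 3 of 10 tubulin genes, or 5 of 10 with median-ratio scaling, beside 38.9% of all genes. With 3 group comparisons for 10 genes, 30 tubulin differences were examined in all.

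The machinery around tubulin was read from the same fits, and limma called 0 genes of any list in any comparison, beside the 0%, 0.00619% and 0% of all genes. Of 10 further tubulin genes 6 were tested. The near-copy Tuba1c was at 7.16 ± 1.35 TPM after vindeburnol, 8.31 ± 2.15 TPM after VB-127 and 7.08 ± 1.83 TPM in controls, and Tuba8 at 6.67 ± 1.33, 6.90 ± 0.504 and 7.48 ± 1.32 TPM. The gamma tubulins, which nucleate microtubules at centrosomes, were at 41.4, 43.6 and 40.3 TPM for Tubg1 and at 51.6, 52.0 and 46.2 TPM for Tubg2. The centriolar delta and epsilon tubulins Tubd1 and Tube1 were at 2.40 and 1.83 TPM after vindeburnol, 3.04 and 2.05 TPM after VB-127, and 2.87 and 1.41 TPM in controls. Tube1 had an unadjusted p of 0.0436 for VB-127 against controls (log2 difference 0.34, limma adjusted p 0.484). Tuba3a was listed at 0 in all libraries, and Tuba3b, Tubal3 and the platelet isotype Tubb1 reached at most 0.290, 0.021 and 0.401 TPM.

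The autoregulation genes were expressed at low to moderate levels in every group. Ttc5, whose product reads the nascent tubulin chain, was at 23.0 ± 4.60 TPM after vindeburnol, 22.7 ± 3.33 TPM after VB-127 and 22.1 ± 2.49 TPM in controls. Its adaptor Scaper was at 9.16 ± 0.957, 9.48 ± 1.14 and 8.84 ± 1.79 TPM, and the CCR4-NOT subunit gene Cnot11 at 11.1 ± 1.496, 11.02 ± 0.683 and 10.6 ± 1.34 TPM in the same groups. The log2 differences of these 3 genes from controls ran from 0.04 to 0.06 after vindeburnol and from 0.03 to 0.11 after VB-127.

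Folding cofactors join alpha and beta tubulin into a dimer. Tbce, which acts on alpha tubulin, was at 44.4, 44.4, 27.2, 27.4 and 38.1 TPM after vindeburnol and at 28.7 to 47.5 TPM (median 42.2 TPM) after VB-127, against 15.4 to 48.6 TPM (median 25.7 TPM) in controls. Control replicate 3 was the highest of all 17 libraries and control replicate 2 the lowest. Its log2 differences were 0.40 (95% interval -0.07 to 0.86, limma adjusted p 0.639) for vindeburnol and 0.52 (95% interval 0.08 to 0.96, unadjusted p 0.0221, limma adjusted p 0.470) for VB-127. The other cofactor genes had log2 differences of -0.14 and -0.10 for Tbca, 0.12 and 0.14 for Tbcb, 0.14 and 0.05 for Tbcc, 0.04 and 0.16 for Tbcd, and 0.07 and 0.11 for the small GTPase gene Arl2, each given for vindeburnol and then VB-127 against controls.

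The CCT chaperonin, which folds new tubulin, and its feeder prefoldin gave medians of -0.01 for vindeburnol and 0.03 for VB-127 over 14 genes. Their gene of smallest p in both comparisons was Tcp1, a chaperonin subunit, at 190 ± 14.7 TPM after vindeburnol and 188 ± 8.19 TPM after VB-127, against 173 ± 13.4 TPM in controls (limma adjusted p 0.624 and 0.532). Among 17 tested genes for enzymes that modify tubulin, 2 had an unadjusted p under 0.05 for vindeburnol and 3 for VB-127, all with positive differences, beside 6.95% and 9.67% of all genes in that direction. The list medians were 0.09 and 0.14, beside 0.08 and 0.11 for all genes. The deglutamylase gene Agbl5 had the smallest p for vindeburnol, at 12.5, 8.83, 6.98, 7.92 and 6.81 TPM against 4.85 to 8.48 TPM in controls (log2 difference 0.39, limma adjusted p 0.555), and vindeburnol replicate 1 stood above the rest. Matcap1, whose product removes the terminal tyrosine of alpha tubulin, had the smallest p for VB-127, at 10.7 to 13.2 TPM against 9.28 to 11.03 TPM (log2 difference 0.27, limma adjusted p 0.470).

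Stathmins bind free tubulin dimers. Stmn1 was at 740.1 ± 67.6 TPM after vindeburnol, 749 ± 37.4 TPM after VB-127 and 763 ± 68.1 TPM in controls, and Stmn3 at 756 ± 41.7, 758 ± 39.2 and 744 ± 53.8 TPM. The neuronal Stmn2 was at 238 ± 23.5, 252 ± 17.98 and 263 ± 23.1 TPM and Stmn4 at 191 ± 22.6, 216 ± 24.7 and 194 ± 27.9 TPM. The 4 log2 differences from controls ran from -0.15 to 0.02 after vindeburnol and from -0.06 to 0.16 after VB-127.

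**Figure D4:**
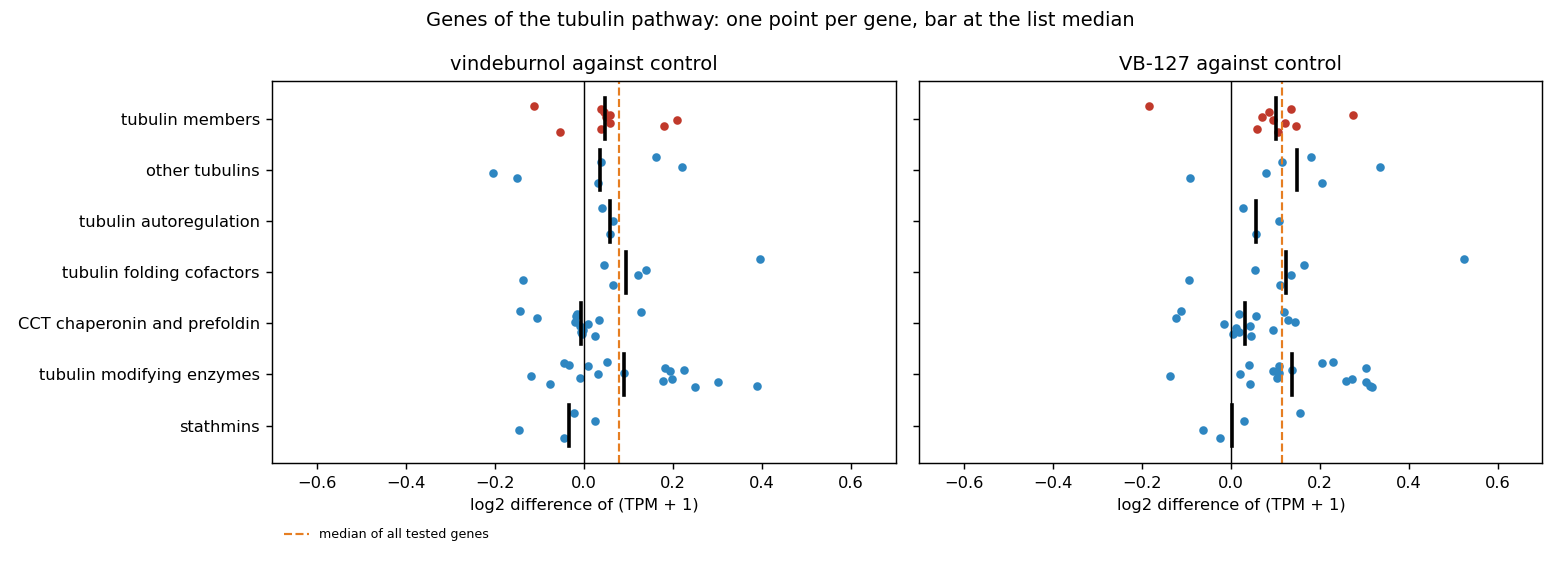
Log2 difference of (TPM + 1) against controls (horizontal axis) for each tested gene (points) of the 10 tubulin genes and 6 lists of related genes, for vindeburnol and VB-127; black bars are list medians and the dashed line is the median of all tested genes. The list medians lie between -0.03 and 0.09 for vindeburnol and between 0.0016 and 0.15 for VB-127, and no point passed the test.

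The levels of the tubulin genes varied together from library to library. Over the 17 libraries the 36 pairs of the 9 abundant genes had Pearson r of log2 levels from 0.13 (Tubb2b and Tubb4a) to 0.92 (Tuba1b and Tubb5), with a median of 0.68. All points share the scaling of their library, and near-copies share reads. Control replicate 1 was the lowest library for 8 of the 9 abundant genes, with Tuba1a at 803 TPM and Tubb4a at 517 TPM. Without it the median r was 0.50, and r ran from -0.19 to 0.89. That library also had the lowest summed oligodendrocyte markers, at 6392 TPM, with neuron markers at 3832 TPM in a range of 3093 to 4955 TPM. Its dopaminergic markers (Slc6a3, Pitx3, Nr4a2 and Foxa1) summed to 3.58 TPM, against 18.2 to 136 TPM in all other libraries. Its mean log2 level of noradrenergic markers was 3.07, beside 3.25 in control replicate 6 and 1.54 to 2.27 in the rest. By summed TPM, the measure used for the other lists, the noradrenergic markers did not stand out in this library. They summed to 72.1 TPM, the lowest of the controls (72.1 to 138 TPM), in a range of 44.6 to 171 TPM over all libraries. The part of tissue content in its low tubulin levels was not tested. Vindeburnol replicate 4 was the highest library for 4 of these 9 genes.

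Genes whose levels most resembled those of single tubulins over the 17 libraries were found among 12131 genes with a mean of at least 2 TPM. The oligodendrocyte gene Ttyh2, which encodes a membrane protein, was nearest to Tubb4a (r 0.93). Nearest to Tuba1b was the neuronal elongation factor gene Eef1a2 (r 0.90), nearest to Tuba4a the phosphatase gene Phospho1 (r 0.92), nearest to Tubb5 the amyloid precursor-like gene Aplp1 (r 0.94) and nearest to Tubb3 the transketolase gene Tkt (r 0.895). Cavin3, Timm22, Rpl10 and Fbln5 were nearest to Tubb2a (r 0.90), Tubb2b (r 0.77), Tubb4b (r 0.895) and Tubb6 (r 0.82). For the mean log2 level of the 10 tubulins the nearest genes were Tkt (r 0.90), the myelin gene Mag (r 0.90) and the acyl-CoA thioesterase gene Acot7 (r 0.897). Without control replicate 1 these values were 0.795, 0.770 and 0.840 in the same order. For single tubulins r was then between 0.73 (Tubb2b with Timm22) and 0.92 (Tubb5 with Aplp1). These are the highest of many correlations and are given as descriptions.

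The tissue label was checked against its defining genes. The noradrenergic genes Dbh, Slc6a2 and Phox2a had medians of 1.08, 0.300 and 0 TPM over the 17 libraries. Dbh, whose product makes noradrenaline, reached at most 1.72 TPM with vindeburnol and 2.36 TPM with VB-127, and lay between 0.290 and 18.9 TPM in controls. The neuron list summed to 3389 to 4149 TPM with vindeburnol, 3665 to 4302 TPM with VB-127 and 3093 to 4955 TPM in controls. Neuron and oligodendrocyte transcripts were thus abundant in these libraries, and noradrenergic markers were low in most of them.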

How the data were processed

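Poly(A) RNA libraries were made with a directional kit, per the labels' protocols. Reads were processed with STAR and Salmon on GRCm39 (mm39), per the submitters' processing notes. The authors deposited TPM per gene, 1 table per library, with no counts, so read depth is unknown, no counting interval is given and precision rests on the spread between libraries. The sources used here do not state whether counting used strand.

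Values were analysed as log2(TPM + 1) for 16153 genes with at least 1 TPM in at least 5 libraries. limma 3.58.1 (R 4.3.3; group as the only term, all 17 libraries, eBayes with trend and robust moderation) gave two-sided tests with Benjamini-Hochberg adjustment over all tested genes, and a call was an adjusted p under 0.05. The fit was also run on simulated data with noise drawn separately for each gene. The outcome is not given here and is not used as evidence. Isotype shares were described without a test. Coding sequences and 31-base windows came from GENCODE M21 (GRCm38). Some sequences and 1 similar gene are not reported here.

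The members, gene lists and tests were chosen with earlier results of these data known. Named genes were all 10 tubulins, all genes of 4 short lists (other tubulins, autoregulation, cofactors, stathmins), the gene of smallest p in the 2 longer lists, the most similar genes, and markers beside a result. Alternatives covered the pseudocount, filter, scaling, samples in the fit, library weights, covariates, a replicate block and each library left out.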

Additional observations from a re-analysis of the deposited data

Results flagged for a closer look

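Among the tubulin levels and shares examined group by group, 1 of 69 stood out. The Tubb3 share of beta tubulin TPM in vindeburnol replicate 2 was 15.7%, against 17.5% to 17.99% in the other 4 vindeburnol libraries. Its gap to the nearest of them was 0.808 of the whole range of the group, above Dixon's critical value of 0.71 for 5 samples. Chance alone marks about 1 in 20 groups in this way. The value lay just below the lowest VB-127 and control libraries, at 15.9% and 15.8%.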

How the results depend on the processing

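Over 27 alternatives, 0 of 810 tubulin differences passed the limma test, and the smallest adjusted p was 0.263 (Tuba4a, vindeburnol against control, with neuron and oligodendrocyte covariates). Of these, 48 changed sign, 13 of them when a library was left out, and the cause was not tested. For vindeburnol against control, signs turned with Bc1 left out (Tuba1b at -0.022, Tubb2a at -0.00072, Tubb3 at -0.010, Tubb4a at -0.0018, Tubb4b at -0.014 and Tubb5 at -0.021). They turned with median-ratio scaling (Tuba1b at -0.049, Tubb2a at -0.028, Tubb3 at -0.037, Tubb4a at -0.029, Tubb4b at -0.042 and Tubb5 at -0.048). They turned with quantile normalization (Tuba1b at -0.014, Tubb2a at -0.014, Tubb3 at -0.013, Tubb4a at -0.019, Tubb4b at -0.022 and Tubb5 at -0.030). They turned with library weights (Tubb4a at -0.025). For VB-127 against control, signs turned with Bc1 left out (Tuba1b at -0.0077). They turned with median-ratio scaling (Tuba1a at -0.016, Tuba1b at -0.063, Tubb2a at -0.00051, Tubb2b at -0.027, Tubb3 at -0.053 and Tubb4b at -0.036). They turned with quantile normalization (Tubb3 at -0.010). They turned with neuron and oligodendrocyte covariates (Tubb2b at -0.0011 and Tubb3 at -0.011). For vindeburnol against VB-127, signs turned with median-ratio scaling (Tuba1b at 0.014 and Tubb3 at 0.015). They turned with library weights (Tubb3 at 0.0065). They turned with neuron and oligodendrocyte covariates (Tubb3 at 0.048 and Tubb4b at 0.021). Leaving out 1 library gave both signs for vindeburnol against control Tubb3 between -0.017 and 0.091, Tubb4a between -0.039 and 0.13, Tubb4b between -0.020 and 0.088 and Tubb5 between -0.018 and 0.098. It did so for vindeburnol against VB-127 Tuba1b between -0.055 and 0.0075, Tubb3 between -0.084 and 0.022 and Tubb6 between -0.020 and 0.13. In 370 alternative values, no difference in share between groups moved by more than 1 pooled within-group SD from the reported difference. Leaving out 1 library cannot move a group mean that far, so for those values this outcome was fixed in advance. The count is therefore no measure of stability.

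The number of genes called for vindeburnol against control was 1 with Bc1 left out (Npas3), 1 with library weights (Npas3) and 2 with the covariates (Smpd2 and Npas3), instead of 0. For VB-127 against control it was 0 with a pseudocount of 0.1, with no filter and with the covariates, 2 in a fit to the 2 groups compared and 3 with library weights, instead of 1. It ran from 0 to 1 with 1 library left out, and was 0 without VB-127 replicate 4, 5 or 6 or control replicate 4 or 5. These genes were named after their values were seen, and no tubulin was among them. The share of genes with unadjusted p under 0.05 that were higher was 85.1% for vindeburnol, 94.8% for VB-127 and 26.4% for vindeburnol against VB-127. It was 51.9%, 53.1% and 44.0% with median-ratio scaling, 47.7%, 46.5% and 49.4% with quantile normalization, and 65.3%, 80.6% and 30.5% with Bc1 left out.

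Replicate numbers are not said to pair libraries. Deviations of libraries with the same number correlated between -0.20 and 0.11, and 1 of 17 libraries correlated best with its own number. With the number as a replicate block, limma called 0 genes in each comparison, and Tubb3 for vindeburnol against VB-127 was at 0.0018 instead of -0.02. Read depth is unknown, so its limit on low genes such as Tubb6 cannot be given.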
